A study of Mus musculus with 6 samples.

Results

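The 9 genes described here encode the enzymes that make serine from a glycolytic intermediate and those that pass its side-chain carbon into folate metabolism: Phgdh, Psat1, Psph, Shmt1, Shmt2, Mthfd1, Mthfd2, Mthfd1l and Aldh1l2. They were chosen by name, with earlier results of these data known. Each had exactly 1 probe set with a single gene symbol, and all 9 were found among the 20239 named genes of the series. Expression was measured on 1-colour arrays of the total RNA of isolated C57BL/6 mouse pericytes, cells that wrap the walls of capillaries. The 3 PDGF-BB arrays came from cells given platelet-derived growth factor BB, the main ligand of the receptor PDGFR-β, at 100 ng/ml for 5 days, and the 3 control arrays from cells given the control treatment for 5 days. The labels name no tissue of origin and do not say whether the arrays of a group came from separate isolations, so the spread behind the p-values is that of these 6 arrays and could be technical alone. In bulk RNA, a change in the number of cells expressing a gene and a change in RNA per cell cannot be told apart.

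Serine synthesis branches off glycolysis in the cytosol. Phgdh oxidises phosphoglycerate, Psat1 adds the amino group from glutamate, and Psph removes the phosphate. Serine hydroxymethyltransferases, Shmt1 in the cytosol and Shmt2 in mitochondria, split serine into glycine and a carbon unit carried by tetrahydrofolate. In mitochondria, Mthfd2 oxidises that unit and Mthfd1l releases it as formate, while Aldh1l2 oxidises it fully to carbon dioxide with production of NADPH. In the cytosol, the trifunctional enzyme Mthfd1 takes up formate or works in the other direction, and the carbon units feed the synthesis of purines and thymidylate. In many cultured cells the mitochondrial arm and the serine enzymes are known targets of the transcription factor ATF4.

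All values below are log2 expression after robust multi-array averaging (RMA), so that a difference of 1 is a doubling. The median of all named genes lay between 8.43 and 8.46 on all 6 arrays, and arrays of a group correlated across genes at r = 0.994 to 0.996. As a check of the cell type, Pdgfrb, a receptor gene used as a pericyte marker, averaged 12.85 with PDGF-BB and 12.98 in control. Of 9 pericyte markers 1 rose in limma, Anpep (log2 change 0.87, adjusted p = 0.0028), and 0 fell. In Cspg4 (log2 change 0.91, adjusted p = 0.065) and Mcam (-0.52, adjusted p = 0.15) the groups did not overlap, but neither passed. A background level of 7.54 was set at the 90th percentile of 18 markers of blood lineages that were taken as absent. Of these, 2 lay above it in both groups, Cd3e (8.22 with PDGF-BB and 8.27 in control) and, narrowly, Cd5 (7.71 and 7.72). Of 9 pericyte markers 7 lay above it, Rgs5 (7.71 and 7.77) and Kcnj8 (7.63 and 7.85) narrowly. In at least 1 group 12993 of all 20239 genes did so too, so the count alone does not mark the cell type. The muscle filament gene Des and the channel subunit gene Abcc9 lay below the level in both groups. Of 4 epithelial markers Krt8 lay above it in both groups and Krt18 only with PDGF-BB. Of 2 measured glial markers Sox10 lay above it in both groups. Of 8 endothelial markers Cldn5 and Vwf lay above that level in both groups and Cdh5 only with PDGF-BB (7.64, against 7.19 in control, adjusted p = 0.10, limma; mean of the list 6.89 to 6.995 on PDGF-BB arrays and 6.92 to 6.95 on control arrays), with Pecam1 and Kdr below it. Of 7 macrophage markers Cd68 and Cd14 lay above it in both groups and Mpeg1 only with PDGF-BB (mean of the list 7.10 to 7.32 on PDGF-BB arrays and 7.02 to 7.06 on control arrays), with Csf1r, Adgre1 and Itgam below it. In limma 2 of these 7 rose, Mpeg1 (7.64 with PDGF-BB and 6.24 in control, log2 change 1.40, adjusted p = 0.0052) and Cd14 (9.20 and 8.41, log2 change 0.80, adjusted p = 0.0071). Another 2 fell, Cd68 (8.96 with PDGF-BB and 9.39 in control, log2 change -0.42, adjusted p = 0.018) and Lyz2, which lay below background in both groups (log2 change -0.49, adjusted p = 0.0053). Their part in the changes of the enzymes was not tested. Each of the 9 enzymes lay above the background level in both groups.

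All 9 enzymes rose with PDGF-BB, by 1.55-fold to 5.17-fold, with a median log2 change of 1.13. In limma, after Benjamini-Hochberg adjustment over all genes, 2037 of 20239 genes (10.1%) rose and 2305 (11.4%) fell, with a median log2 change of -0.02. Both numbers depended on single arrays. Without PDGF-BB array 1, 1431 genes rose and 1516 fell, and without PDGF-BB array 2, 1420 rose and 1514 fell. On each of the 9 the lowest PDGF-BB array lay above the highest control array, by a gap of 0.35 (Mthfd1) to 1.79 (Aldh1l2) log2 units, against 16.9% of all genes with such a separation in that direction. The 9 log2 changes lay between the 95.6th and the 99.9th percentile of those of all genes. Since the 9 were chosen with earlier results of these data known, these comparisons with all genes are descriptions. The increase was at least 2-fold in 6 of the enzymes, and Phgdh, Mthfd1 and Psph stayed under that size.

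**Figure D1:**
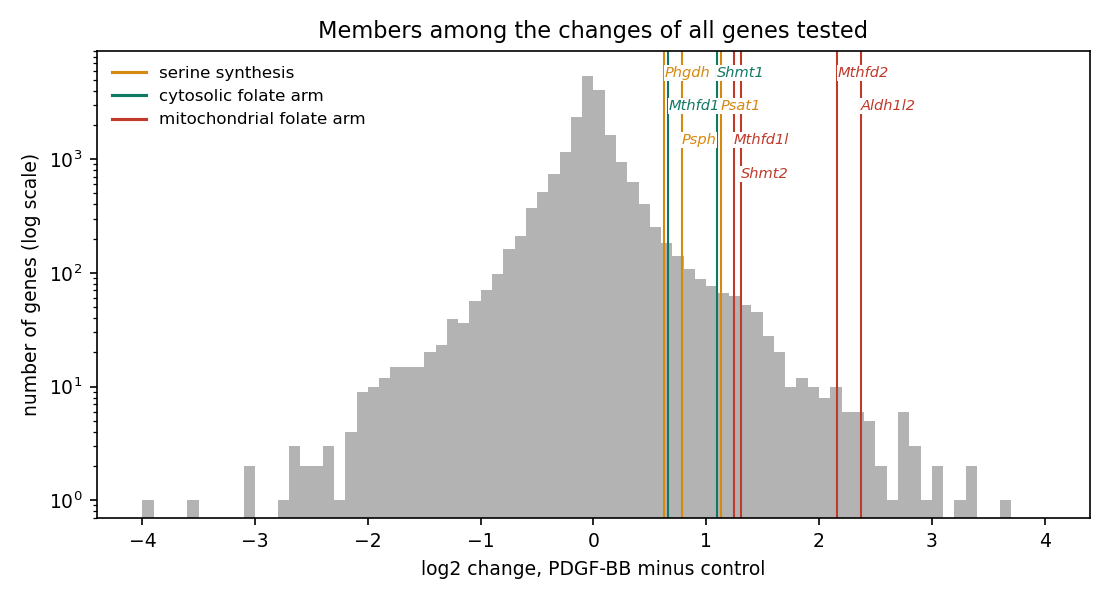
The grey bars count all 20239 genes (log axis) by their log2 change, PDGF-BB minus control, and coloured lines mark the 9 enzymes by branch. All 9 lines stand right of 0, from 0.63 (Phgdh) to 2.37 (Aldh1l2), with Mthfd2 and Aldh1l2 farthest out.

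The serine synthesis enzymes rose by 1.55-fold to 2.19-fold. Phgdh (Entrez gene 236539), the first and committing enzyme, measured 9.65, 9.46 and 9.65 on PDGF-BB arrays 1 to 3, against 9.10, 8.74 and 9.04 on control arrays 1 to 3. The groups were apart by 0.36 log2 units at their nearest arrays, and the log2 change was 0.63 (SE 0.11, 95% interval 0.37 to 0.89, adjusted p = 0.0081, limma). Psat1 (Entrez gene 107272), the aminotransferase of the second step, measured 12.83, 12.95 and 12.89 on PDGF-BB arrays, against 11.73, 12.18 and 11.36 on control arrays. The PDGF-BB arrays lay close together while the control arrays spread over 0.82 log2 units, and the log2 change was 1.13 (SE 0.19, adjusted p = 0.0067). Psph (Entrez gene 100678), the phosphatase that releases serine, measured 9.09, 9.27 and 9.24 on PDGF-BB arrays, against 8.42, 8.37 and 8.46 on control arrays. Its control arrays were the tightest of the 9 genes (SD 0.04), and the log2 change was 0.78 (SE 0.07, adjusted p = 0.0011).

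The cytosolic folate enzymes rose by 1.58-fold and 2.14-fold. Shmt1 (Entrez gene 20425), the cytosolic hydroxymethyltransferase, measured 9.74, 9.96 and 9.69 on PDGF-BB arrays, against 8.88, 8.66 and 8.57 on control arrays. Every PDGF-BB array was at least 0.81 log2 units above every control array, and the log2 change was 1.09 (SE 0.11, 95% interval 0.85 to 1.34, adjusted p = 0.0015). Mthfd1 (Entrez gene 108156), the cytosolic trifunctional enzyme, measured 10.51, 10.49 and 10.47 on PDGF-BB arrays, against 10.12, 9.69 and 9.67 on control arrays. Control array 1 was the high one of its group, the gap to the nearest PDGF-BB array was the smallest of the 9 enzymes, and the log2 change was 0.66 (SE 0.12, 95% interval 0.37 to 0.95, adjusted p = 0.0099).

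The 4 mitochondrial folate enzymes among the 9 genes rose by 2.37-fold to 5.17-fold. Shmt2 (Entrez gene 108037), the mitochondrial hydroxymethyltransferase, measured 11.94, 12.13 and 12.19 on PDGF-BB arrays, against 11.21, 10.56 and 10.57 on control arrays. Control array 1 again lay above the other controls, and the log2 change was 1.31 (SE 0.18, 95% interval 0.88 to 1.73, adjusted p = 0.0036). Mthfd2 (Entrez gene 17768), the mitochondrial dehydrogenase and cyclohydrolase, measured 11.04, 10.64 and 11.04 on PDGF-BB arrays, against 9.43, 8.17 and 8.63 on control arrays. It had the widest control spread of the 9 genes (SD 0.64, against 0.23 with PDGF-BB), the lowest PDGF-BB array was still 1.21 log2 units above the highest control array, and the log2 change was 2.16 (SE 0.30, 95% interval 1.46 to 2.87, adjusted p = 0.0036), a 4.48-fold increase.

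Mthfd1l (Entrez gene 270685), the mitochondrial formate-releasing synthetase, measured 10.51, 10.49 and 10.39 on PDGF-BB arrays, against 9.55, 9.03 and 9.08 on control arrays. Its groups lay 0.84 log2 units apart at their nearest arrays, and the log2 change was 1.24 (SE 0.14, 95% interval 0.92 to 1.57, adjusted p = 0.0020). Aldh1l2 (Entrez gene 216188), the mitochondrial formyl-tetrahydrofolate dehydrogenase, measured 10.77, 11.13 and 11.32 on PDGF-BB arrays, against 8.52, 8.98 and 8.61 on control arrays. It had the largest change and the smallest adjusted p of the 9 genes, with a log2 change of 2.37 (SE 0.17, 95% interval 1.97 to 2.77, adjusted p = 6.5e-04), a 5.17-fold increase.

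**Figure D2:**
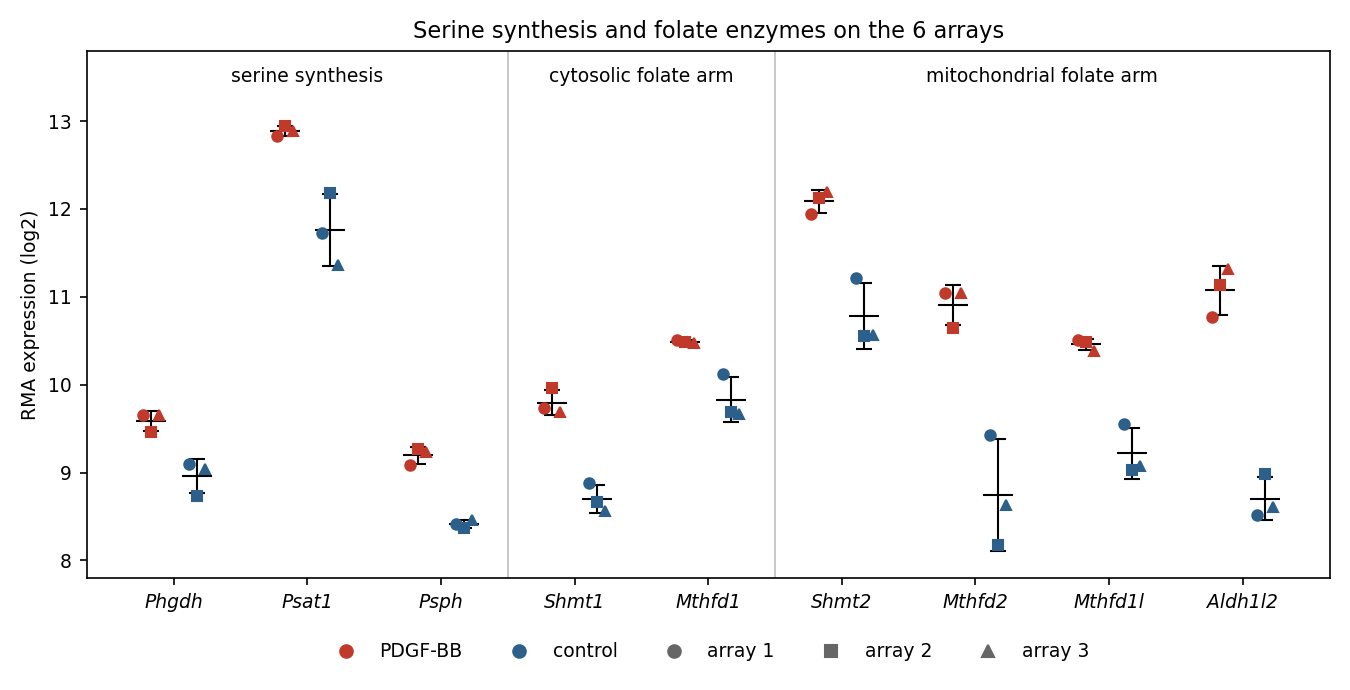
Each symbol is 1 array (circle, square and triangle for arrays 1, 2 and 3), PDGF-BB in red left of control in blue, on the log2 RMA scale. Black bars give the group mean and SD (n = 3 each). The red and blue symbols of no gene overlap, and the blue symbols spread more widely than the red in 7 of the 9 genes.

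The mean shift of the mitochondrial arm was larger than that of the cytosolic arm. Taking the mean log2 value of each branch relative to its own control mean, the mitochondrial arm stood at 1.70, 1.74 and 1.87 on PDGF-BB arrays 1 to 3, against 0.32, -0.17 and -0.14 on control arrays 1 to 3. The cytosolic arm stood at 0.86, 0.96 and 0.82 on PDGF-BB arrays, against 0.24, -0.09 and -0.15 on control arrays, and serine synthesis at 0.81, 0.85 and 0.88 on PDGF-BB arrays, against 0.04, 0.05 and -0.09 on control arrays. The shift of the mitochondrial arm was thus 1.77 log2 units, that of the cytosolic arm 0.88 and that of serine synthesis 0.85. On each array, the mitochondrial minus the cytosolic mean lay at 0.84, 0.78 and 1.05 with PDGF-BB and at 0.08, -0.08 and 0.00 in control, again relative to the control mean. This extra shift of 0.89 log2 units was 0.76, 0.86 and 1.05 between the arrays numbered 1, 2 and 3, and 0.69 with Aldh1l2 left out. It is a description of chosen genes and was given no test. Outside the chosen genes, mitochondrial Mthfd2l gave no increase (log2 change -0.26), and cytosolic Aldh1l1 lay below the background level in both groups.

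The excess differed from step to step. At the hydroxymethyltransferase step, the log2 change of Shmt2 exceeded that of Shmt1 by 0.21. The within-array difference between the 2 genes was 2.20, 2.17 and 2.50 on PDGF-BB arrays, against 2.34, 1.90 and 2.001 on control arrays, and these ranges overlap, as do the 95% intervals of the isozymes' changes. At the dehydrogenase step Mthfd2 moved 1.50 log2 units further than Mthfd1. The within-array difference of those genes was 0.53, 0.16 and 0.57 on PDGF-BB arrays, against -0.69, -1.51 and -1.04 on control arrays, with no overlap, and the 95% interval of Mthfd2 starts above the end of that of Mthfd1. Mthfd1l moved 0.58 log2 units further than Mthfd1, and its excess was the steadiest of the 3, at 0.57, 0.66 and 0.51 between the arrays numbered 1, 2 and 3. The 95% intervals of Mthfd1l (0.92 to 1.57) and Mthfd1 (0.37 to 0.95) overlap. Their within-array difference was -0.006, 0.003 and -0.085 on PDGF-BB arrays, against -0.57, -0.66 and -0.59 on control arrays, with no overlap. The 95% intervals are those of single genes and do not measure the spread of a difference between 2 genes of the same arrays. The differences within arrays show unequal change, not which transcript is more abundant, since different probe sets are not on a common scale.

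**Figure D3:**
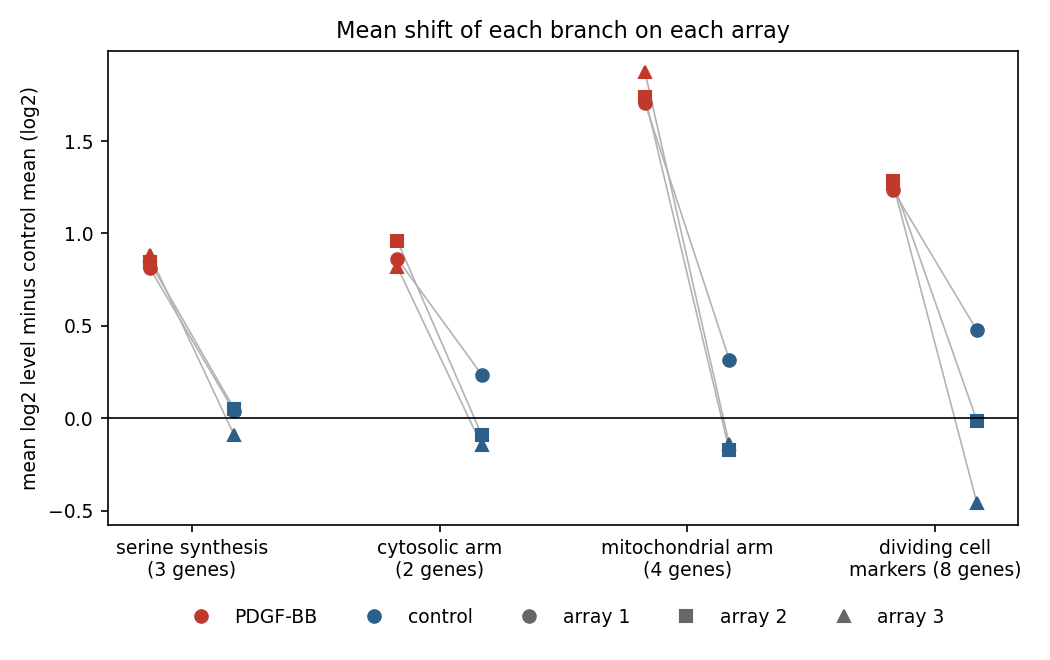
The mean log2 level of each branch, and of 8 markers of dividing cells, is drawn for each array relative to the mean of the 3 control arrays, PDGF-BB in red left of control in blue, with grey lines joining arrays of the same number. The mitochondrial arm reaches 1.70 to 1.87 with PDGF-BB, and the cytosolic arm and serine synthesis 0.81 to 0.96.

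Genes of dividing cells moved with these enzymes. Of 10 markers listed 8 were measured, and all 8 markers of S phase and mitosis rose, with a median log2 change of 1.27. As a mean they stood at 1.24, 1.28 and 1.27 on PDGF-BB arrays, against 0.47, -0.01 and -0.46 on control arrays, relative to the control mean. Among the control arrays the mitochondrial and the cytosolic arm were highest on array 1, as the dividing cell markers were, whereas Psat1 and Aldh1l2 were highest on array 2 and Psph on array 3. The part of cell division in the enzymes' increase was not tested.

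Of 5 regulators with a known link to amino acid or growth control 3 rose and 0 fell. Atf4, whose protein is controlled mainly at translation, measured 9.96, 9.99 and 10.13 on PDGF-BB arrays, against 9.66, 9.58 and 9.63 on control arrays (log2 change 0.40, SE 0.07, adjusted p = 0.0064, limma). Trib3, a pseudokinase gene, rose by 0.73 log2 units (SE 0.08, adjusted p = 0.0022). Myc, a transcription factor of growth, measured 11.66, 11.84 and 11.54 on PDGF-BB arrays, against 11.20, 10.87 and 10.67 on control arrays (log2 change 0.76, SE 0.14, adjusted p = 0.010). Ddit3, a stress-induced transcription factor named here after its values were seen, averaged 10.15 with PDGF-BB and 9.65 in control (log2 change 0.50, SE 0.15, adjusted p = 0.056), and passed once the arrays were paired by number (adjusted p = 0.0048).

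Promoter sequence was examined because the 9 genes moved together. RefSeq's table for GRCm38.p6 held 9 windows for 8 of the 9 genes (Psat1 had 2), each from 250 bases before to 50 after a gene start, and Aldh1l2 had no entry. On both strands, TGATGNAA, the core bound by ATF4 with C/EBP partners, occurred in 0 of the 9 windows and in 3.97% of all 32851 windows, and CACGTG, the E-box bound by Myc with Max, in 0 of the 9 and in 7.15% of all. These letters are therefore not in these windows, which says nothing of sites elsewhere. CCAAT, the box bound by NF-Y and searched for after the windows had been read, occurred in 6 of the 9 windows, those of Phgdh, Psat1, Psph, Shmt1, Mthfd1 and Mthfd2, and in 37.4% of all windows.

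The 120 bases before the gene start are shown for Mthfd2, Mthfd1, Shmt2 and Shmt1, 5′ to 3′ on the gene's strand. The comparison of the arms also takes in Mthfd1l, not shown, and Aldh1l2, which had no entry. CCAAT or its reverse complement is in capitals. Mthfd2 (chr6:83317605-83317724, minus strand) holds 3 such boxes, starting 96, 47 and 22 bases before the start, Mthfd1 (chr12:76255112-76255231, plus strand) and Shmt1 (chr11:60811266-60811385, minus strand) 1 each, and Shmt2 (chr10:127522445-127522564, minus strand) 0.
Mthfd2: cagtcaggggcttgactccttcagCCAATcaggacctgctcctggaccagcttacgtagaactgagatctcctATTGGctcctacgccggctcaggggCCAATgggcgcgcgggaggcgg
Mthfd1: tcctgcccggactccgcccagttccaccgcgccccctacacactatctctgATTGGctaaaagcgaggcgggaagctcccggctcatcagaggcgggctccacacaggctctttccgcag
Shmt2: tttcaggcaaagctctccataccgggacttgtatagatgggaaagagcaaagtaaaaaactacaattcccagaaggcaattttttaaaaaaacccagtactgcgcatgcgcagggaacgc
Shmt1: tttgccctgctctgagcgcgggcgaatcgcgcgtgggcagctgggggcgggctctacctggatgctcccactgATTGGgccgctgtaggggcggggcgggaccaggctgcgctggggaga
Of these 4 stretches, that of Mthfd2 holds the most boxes and that of Shmt2 the fewest. Of the windows not shown, those of Psat1 hold 3 and 0 boxes, those of Phgdh and Psph 2 each, and that of Mthfd1l 0. The part of these boxes in the changes was not tested.

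The other genes of serine and folate metabolism changed in both directions. Of 46 such genes listed, the 5 regulators not counted, 40 were measured, and 8 of them (20%) rose and 5 (12.5%) fell, against 10.1% and 11.4% of all genes, with a median log2 change of -0.02. The count that rose was 5 without PDGF-BB array 1 or 2 or control array 2 or 3. It was 6 without PDGF-BB array 3 and 11 without control array 1. The count that fell was 2 without PDGF-BB array 1 or 2 and 3 without control array 2 or 3. It was 5 without PDGF-BB array 3 and 6 without control array 1. Of the 40 genes, 34 lay above the background level in at least 1 group, so the shares of all genes, dim ones included, are not a like base. With the dimmer 50% of all genes left out, 1946 of 10120 genes rose and 1967 fell. The shares of all genes also depended on single arrays, with as few as 1420 genes that rose and 1514 that fell when 1 array was left out. The 6 listed genes that were not measured are not analysed here.

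Among genes that use the folate carbon units, Tyms, the thymidylate synthase, rose most. It measured 10.24, 10.40 and 10.36 on PDGF-BB arrays, against 9.45, 9.23 and 9.04 on control arrays (log2 change 1.09, SE 0.11, adjusted p = 0.0016, limma). Atic, which adds the last carbon of the purine ring, rose by 0.34 log2 units (SE 0.07, adjusted p = 0.015), a call lost without PDGF-BB array 2 or control array 3 (adjusted p = 0.055 and 0.051). Mthfd2l, the paralogue of Mthfd2 in mitochondria, gave no increase and measured 9.88, 9.77 and 9.94 on PDGF-BB arrays, against 9.999, 10.18 and 10.19 on control arrays. All 3 PDGF-BB arrays lay below the controls, and the log2 change was -0.26 (SE 0.08, adjusted p = 0.060). It passed without control array 1 (adjusted p = 0.031), with genes of low mean signal left out (0.046) and with the arrays quantile-normalized again (0.046). Aldh1l1, the cytosolic counterpart of Aldh1l2, averaged 7.37 with PDGF-BB and 7.31 in control, both below the background level. Probes of these paralogues, and of Shmt1 and Shmt2, were not checked for shared sequence.

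Of 7 genes of folate uptake and storage 1 rose and 1 fell. Slc19a1, the reduced folate carrier of the plasma membrane, had a log2 change of 0.30 (SE 0.07, adjusted p = 0.025), a call lost (adjusted p = 0.055 to 0.078) without any 1 of the arrays other than control array 3. Slc25a32, the mitochondrial folate carrier, had a log2 change of 0.27 (adjusted p = 0.071) that passed without control array 1 (0.027). Ggh, which trims the glutamate tail that retains folate in cells, fell by 0.56 log2 units (9.05, 8.95 and 9.15 on PDGF-BB arrays, against 9.65, 9.63 and 9.55 on control arrays, adjusted p = 0.0028).

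Of 10 genes of serine entry and use 2 rose and 2 fell. Slc1a4, a neutral amino acid transporter that carries serine, rose by 0.45 log2 units (SE 0.07, adjusted p = 0.0057), and Gcat, a mitochondrial enzyme of glycine metabolism, by 0.54 (SE 0.08, adjusted p = 0.0042). Srr, the serine racemase, measured 9.69, 9.42 and 9.81 on PDGF-BB arrays, against 10.33, 10.49 and 10.35 on control arrays, and fell by 0.75 log2 units (SE 0.11, adjusted p = 0.0043). Slc38a2, an amino acid transporter, fell by 0.24 (adjusted p = 0.023), a call lost without PDGF-BB array 1 or 2 or control array 2 or 3 (adjusted p = 0.071 to 0.083). Sfxn1, which carries serine into mitochondria, had a log2 change of -0.16 (SE 0.07, adjusted p = 0.17).

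In the glycine cleavage system, which breaks glycine into a further folate carbon unit, 1 of 4 genes rose and 1 fell. Amt, the aminomethyltransferase, whose PDGF-BB mean lay below the background level, had a log2 change of -0.36 (adjusted p = 0.038), a call lost without PDGF-BB array 1 or 2 or control array 2 or 3 (adjusted p = 0.075 to 0.11) and with the arrays quantile-normalized again (0.083). Gcsh, the carrier protein, had a log2 change of 0.36 (adjusted p = 0.0051) with both group means below the background level. Gldc, the decarboxylase, with its PDGF-BB mean below that level too, had a log2 change of -0.32 (adjusted p = 0.053), and passed once the arrays were paired by number in the fit (0.043).

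In the methionine cycle and transsulfuration, 2 of 11 genes rose and 1 fell. Cth, which releases cysteine from cystathionine, measured 8.74, 8.35 and 8.72 on PDGF-BB arrays, against 8.22, 7.60 and 7.83 on control arrays, a log2 change of 0.72 (SE 0.17, adjusted p = 0.026). That call was lost without PDGF-BB array 1 or 3 or control array 2 or 3 (adjusted p = 0.068 to 0.090). Mtrr, the reductase that keeps methionine synthase active, rose by 0.41 log2 units (adjusted p = 0.035, and 0.079 to 0.11 without PDGF-BB array 1 or 2 or control array 2 or 3), and Ahcyl1, a homologue of the homocysteine-producing hydrolase, fell by 0.38 (adjusted p = 0.020, and 0.066 and 0.070 without PDGF-BB array 1 and 2). The gene of that hydrolase, Ahcy, named here after its values were seen, pointed the other way and did not pass. It averaged 7.83 with PDGF-BB and 7.26 in control, the latter below the background level (log2 change 0.57, adjusted p = 0.065, limma). It passed without control array 1 (adjusted p = 0.010). Cbs, the enzyme that joins serine to homocysteine, had a log2 change of -0.22 (adjusted p = 0.15).

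**Figure D4:**
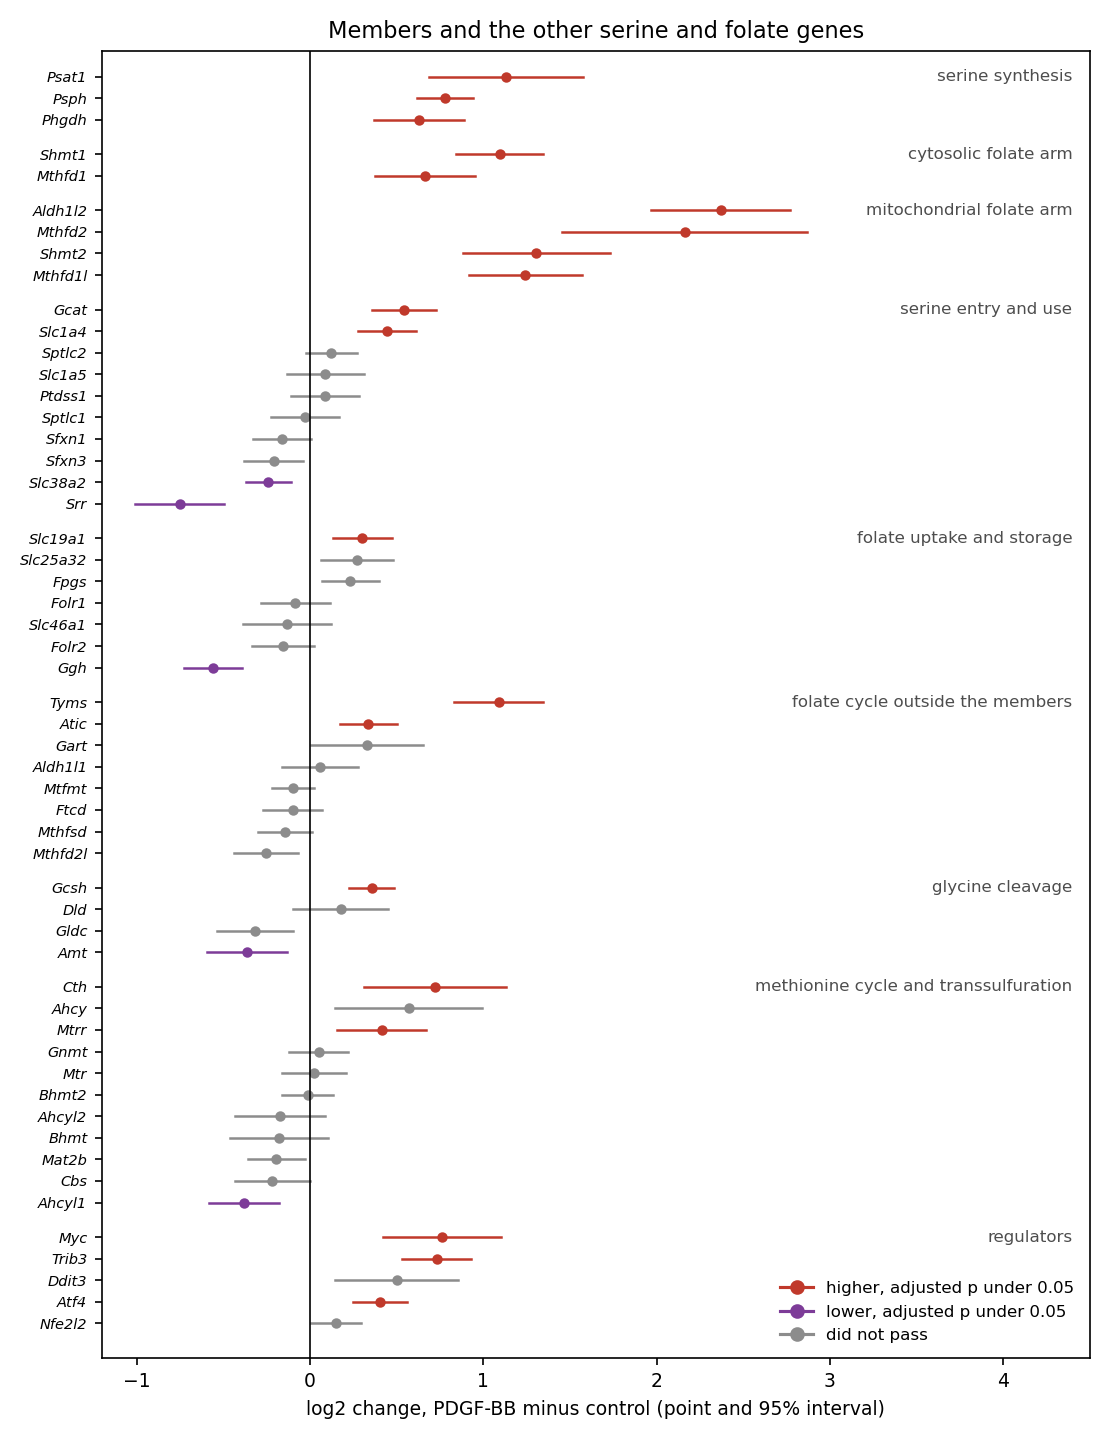
Points give the log2 change, PDGF-BB minus control, with its 95% interval for the 9 enzymes and the 45 other measured genes, the regulators among them, grouped by role, and colour gives the call in limma. All 9 enzymes stand right of 0, while the other groups hold genes on both sides except the regulators.

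Over the 6 arrays, the genes whose centred values lay closest to those of Aldh1l2, the enzyme with the smallest p, were Gch1, Lipg, Agtr2, Ifi27l2a and Adcyap1r1. Their root mean square difference from Aldh1l2 was 0.10 to 0.25 log2 units and their log2 changes were 2.13 to 2.71. With 6 arrays in 2 groups, such likeness mostly reflects the size of the difference between groups.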

How the data were processed

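The authors deposited 1 table of log2 values with 21225 probe sets and 6 arrays, which RMA produced per the submitters' processing notes. RMA corrects background, quantile-normalizes arrays and summarises probe sets. Its software version, probe set definition and genome build were not given in the sources used here. Because RMA equalises arrays, each change is relative to that of most genes. GEO's platform annotation gave 1 symbol to 20239 probe sets, 0 had several, and the 986 unnamed ones entered only an alternative.

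Groups came from sample titles. The log2 values were tested with limma 3.58.1 in R 4.3.3 (lmFit and eBayes, two-sided, group as the only factor, no filter), with Benjamini-Hochberg adjustment over 20239 genes and calls at an adjusted p under 0.05. A fold is 2 raised to the log2 change. The procedure was tested on simulated data. Precision is limited by the number of arrays, 3 in each group.

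The 9 members, the gene lists and the background markers were chosen with earlier results of these data known. Named genes are the 9 members, a fixed set of pathway genes, pathway genes with an adjusted p under 0.05, and for likeness the 5 genes with the smallest root mean square difference from the member with the smallest p. Ddit3 and Ahcy were named after their values were seen. Branch means are descriptions without a test. Promoter windows came from RefSeq (GRCm38.p6).

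Across genes, the deviations of same-numbered arrays from their group means correlated at 0.25, 0.32 and 0.25, those of differently numbered arrays at -0.28 to 0.01. Deviations from a group's own mean are tied to each other, so these correlations are not separate pieces of evidence. The labels do not say what arrays of the same number share, so a pairing by number is possible but not stated. The principal fit left the arrays unpaired, and its SEs, intervals and p-values ignore any pairing. Pairing by number entered only as the replicate block among the alternatives. No array was a copy of another (median absolute difference within a group 0.0896 to 0.105). Alternatives were repeated quantile normalization, median centring, a filter on dim genes, the unnamed probe sets, an intensity trend, the replicate block and leaving out each array.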

Additional observations from a re-analysis of the deposited data

How the results depend on the processing

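All 9 enzymes rose, with an adjusted p under 0.05 in limma, under each of the 12 alternatives run. With the replicate number as a block, which pairs the arrays, 4741 genes were called rather than 4342, again with 9 of the 9 enzymes among them, and of the 45 other pathway genes, regulators included, Gldc (adjusted p = 0.043, against 0.053) and Ddit3 (0.0048, against 0.056) gained a call, so that 12 rather than 11 rose and 6 rather than 5 fell. Leaving out 1 array at a time, the largest adjusted p of an enzyme was 0.040 (Mthfd1 without PDGF-BB array 1). The number of all genes that rose then ranged from 1420 to 2031 and the number that fell from 1514 to 2188. Of the 45 other pathway genes, 8 to 14 rose and 2 to 6 fell. The extra shift of the mitochondrial arm ranged from 0.81 to 0.95 without 1 array, was 0.99 with medians in place of means and 0.69 without Aldh1l2, which is the fall that taking out the gene with the largest change gives by construction. With the dimmer 50% of genes left out, 38.7% of the genes tested were called. For the pathway genes that were called or in the fixed set, 257 values under the alternatives were compared. Of these, 26 lost and 5 gained their call. Another 1 changed sign, Aldh1l1 without PDGF-BB array 3 (log2 change -0.012, within a range of -0.012 to 0.15 when 1 array was left out). Gains of pathway genes outside that set, such as Ddit3 with the replicate block and Ahcy without control array 1, are not among the 5. Genes under the background level may change unseen.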

Other observations

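The spread among the control arrays was uneven across the enzymes. In 6 of the 9 genes (Phgdh, Shmt1, Mthfd1, Shmt2, Mthfd2 and Mthfd1l) control array 1 was the highest of the controls, and in 7 of the 9 the difference between the arrays numbered 1 was the smallest of the 3 numbered differences. Over the 9 enzymes, the median of these differences was 0.86 log2 units for number 1, 1.296 for number 2 and 1.31 for number 3. The PDGF-BB arrays were closer together than the controls in 7 of the 9 genes, the other 2 being Psph and Aldh1l2. The dividing cell markers had an SD of 0.02 over the PDGF-BB arrays and 0.47 over the control arrays, taken as a mean of 8 genes.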
